A study of Rattus norvegicus with 18 samples.

Results

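The 10 genes described here set the brains of both hypertensive rat strains apart from those of the normotensive strain. They are Adtrp, Ly75, Acox2, Map3k5, Slc5a2, Amy1, St6galnac2, Ms4a4a, Tac4 and Rnf40, and 11 of the 30367 probes of the array report on them (10 of the 21199 genes fitted). They were selected on measured values, because each had differed in the same direction from the normotensive strain in both hypertensive strains and at both ages, so those differences are given as a description without a test. In the present fit 28.9% of all genes differed between SHR and WKY at 3 weeks, 40.9% between SHRSP and WKY at 3 weeks, 41.4% between SHR and WKY at 6 weeks and 30.4% between SHRSP and WKY at 6 weeks (limma, Benjamini-Hochberg adjusted p under 0.05). Of the 21199 genes, 960 (4.53%) did so in one direction in all 4 comparisons, 539 of them higher and 421 lower than WKY, and the 10 genes belong to these by choice. By mean change, Adtrp ranked 4, Ly75 7, Map3k5 23, Slc5a2 36, Tac4 38 and Rnf40 50 of the 539 higher genes, and Amy1 ranked 7 of the 421 lower genes. Acox2, Ms4a4a and St6galnac2 are given no rank, since no array of at least 1 group was well above background for them.

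The genes have no pathway in common. Adtrp is a membrane hydrolase of fatty acid esters that also raises tissue factor pathway inhibitor on endothelium, and Ly75 (DEC-205) and Ms4a4a are surface proteins of antigen-presenting cells and macrophages. Acox2, Amy1 and St6galnac2 encode enzymes that shorten bile acid precursors in peroxisomes, split starch and add sialic acid to O-linked glycans, while Slc5a2 (SGLT2) is the main glucose carrier of the kidney's proximal tubule. Map3k5 (ASK1) is a redox-sensitive kinase above JNK and p38, Tac4 encodes the tachykinin hemokinin-1, and Rnf40 is a partner of Rnf20 in the ligase that ubiquitylates histone H2B.

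The study compared whole brains of untreated rats of the normotensive strain WKY, of the spontaneously hypertensive rat (SHR) and of its stroke-prone relative (SHRSP), each aged 3 or 6 weeks. Every group had 3 biological replicates on 1 array each (18 arrays). SHR and WKY stem from the same Wistar stock and SHRSP from SHR, so the strains differ by inheritance and by no treatment, and neither sex nor pooling of animals was stated. RNA was primed with oligo-dT and labelled with Cy3, and each array carried 1 sample. A level is log2 of the spot's intensity minus that array's 75th percentile, so values below 0 are dimmer than that percentile, a difference of 1 is 2-fold, and levels of different probes are not comparable. Each value carries the standard error (SE) of a fit over all 18 arrays, n = 3 arrays per group.

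The SHR and SHRSP labels gave grounds for doubt before any result. Of 595 genes that differed between SHRSP and SHR at both ages, 493 did so in opposite directions, and of the 52 that differed at least 2-fold at both ages 47 did, so the groups are called arrays labelled SHR and arrays labelled SHRSP where a direction between them is given. At 6 weeks each strain was on a slide of its own, so strain and slide cannot be told apart at that age. At 3 weeks slide 1 held the 3 WKY arrays and 1 array labelled SHR, and slide 2 held 2 arrays of each hypertensive label. Slide 3 held 1 array labelled SHRSP of 3 weeks beside the 3 WKY arrays of 6 weeks. With slide as a fixed block, WKY at 3 weeks is thus compared with the other strains through 1 array. All 8 neuronal, 6 astrocyte and 6 oligodendrocyte markers were well above background on all arrays labelled whole brain. The summed level of the 5 pituitary markers measured reached 73.7 on 1 array labelled SHRSP at 6 weeks and 5.77 on 1 labelled SHR at 3 weeks, against 0.492 to 0.833 over the 6 WKY arrays.

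The probes are 60-base oligonucleotides and their coordinates refer to the rn4 build, per the file headers. Adtrp's lies on chr17:28879511-28879570, that of Ly75 on chr3:42004275-42004334, that of Acox2 on chr15:18673090-18673149 and that of Slc5a2 on chr1:187529292-187529351. Rnf40 was read at chr1:186890672-186890731, Ms4a4a at chr1:213948281-213953512, Amy1 at chr2:209553111-209553263, St6galnac2 at chr10:106793713-106793772 and Tac4 at chr10:83954412-83954471. The Amy1 and Ms4a4a probes span 153 and 5232 bases of the genome, so they are interrupted there. The Ly75, Amy1 and St6galnac2 probes are on the minus strand and the others on the plus strand. Map3k5 had a probe at chr1:15334012-15334071 and another at chr1:15408380-15408439, both named by a synonym of the gene in the files. Exon and untranslated-region placement on rn4, and the sequence of these strains under the probes, were not analysed here. The sequences below are those of 5 probes with an uninterrupted reading frame. They are the pair for Map3k5, whose readings disagreed, and the probes of Ly75, Acox2 and Amy1, which had the largest differences among the rest of the probes of this kind. Capitals are not used, since no part of a probe was singled out.
Map3k5, 5′ probe: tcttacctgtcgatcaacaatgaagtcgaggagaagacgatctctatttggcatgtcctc
Map3k5, 3′ probe: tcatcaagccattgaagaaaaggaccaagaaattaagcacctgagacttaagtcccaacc
Ly75: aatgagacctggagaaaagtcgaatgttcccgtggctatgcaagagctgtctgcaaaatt
Acox2: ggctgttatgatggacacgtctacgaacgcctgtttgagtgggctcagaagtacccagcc
Amy1: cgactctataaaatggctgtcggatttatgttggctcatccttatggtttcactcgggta

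Across the 11 probes, 10 had at least 1 reading frame without a stop codon, against 85.4% of the 30367 probes on the array. The polyadenylation hexamer AATAAA was found on the sense strand in 3 of them, those of Adtrp, Slc5a2 and Tac4, against 8.39% of all probes. The 2 Map3k5 probes share no run longer than 5 bases.

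**Figure D1:**
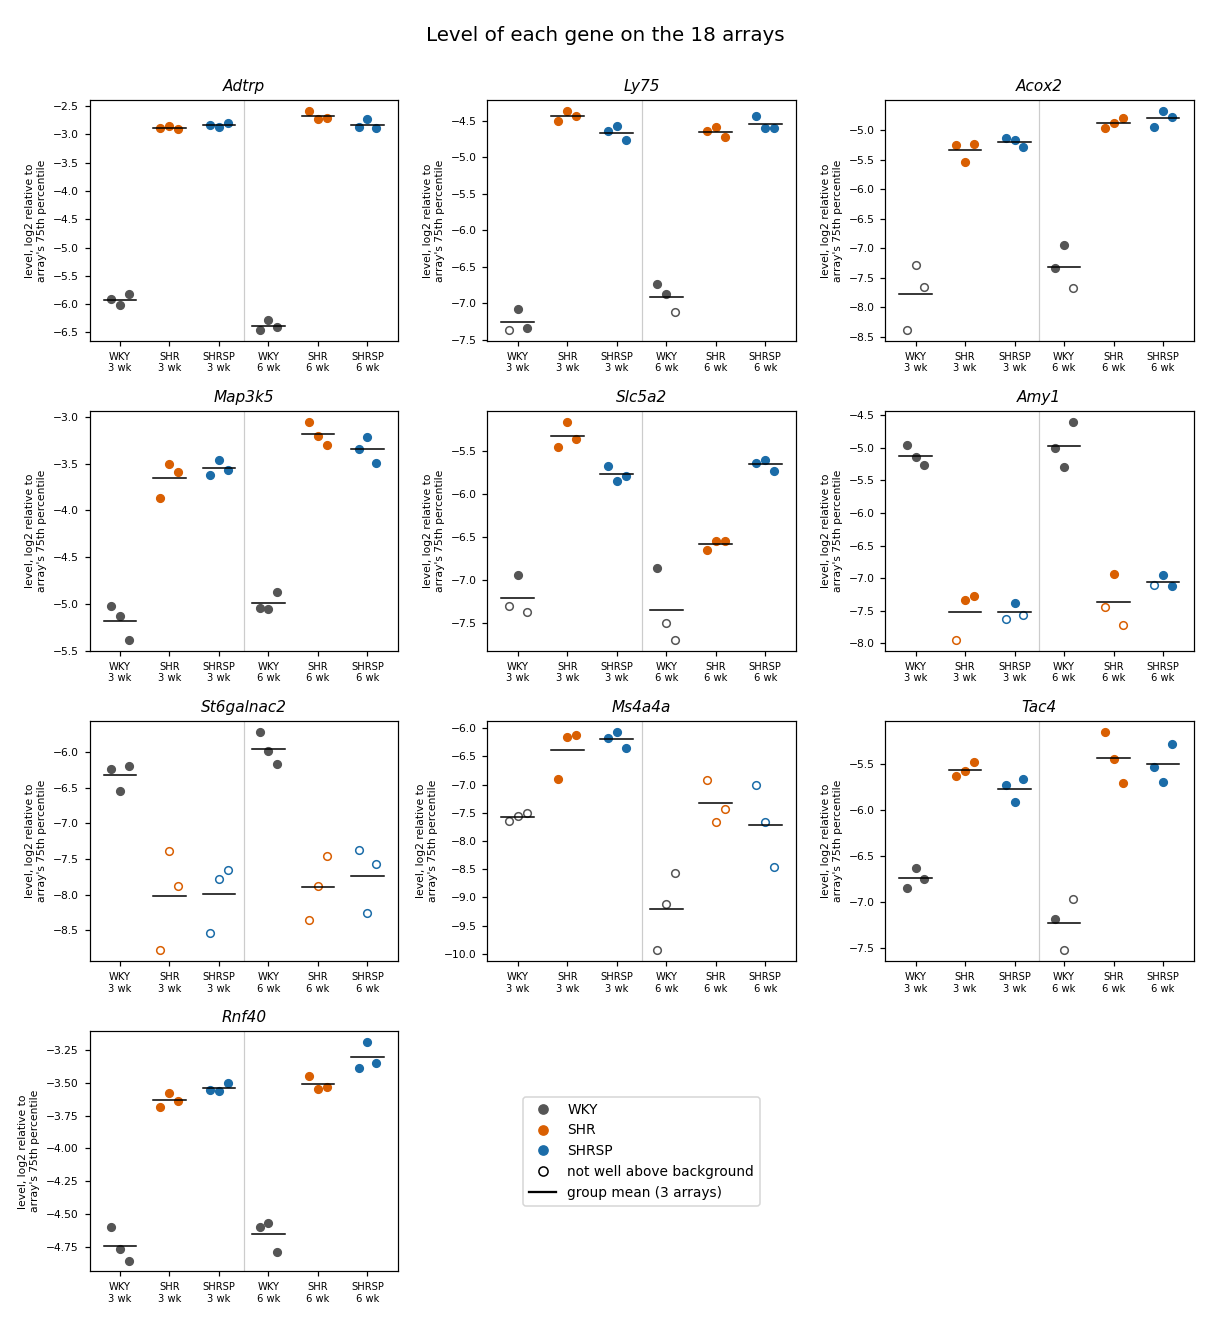
Level of each gene on each of the 18 arrays (y axis, log2 relative to the array's 75th percentile) by strain and age (x axis), with open circles for spots not well above background and a line at the mean of 3 arrays. Within each age the 3 WKY arrays lie on one side of the 6 others, by 0.20 for Slc5a2 at 6 weeks and by 3.39 for Adtrp at 6 weeks, while all circles of Ms4a4a at 6 weeks are open and carry no measured difference.

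Spot intensities of the 10 genes ran from 2.30 to 374. Every spot of Adtrp, Map3k5 and Rnf40 was marked well above background, while each of the other genes had at least 1 array where it was not. The WKY arrays and the others were apart within each age, with gaps from 0.20 (Slc5a2, 6 weeks) to 3.39 (Adtrp, 6 weeks), leaving aside Ms4a4a at 6 weeks, which no array measured above background. Pooled over both ages, Ms4a4a overlapped and Slc5a2 was left with a gap of 0.20. In size the median difference from WKY of the 10 genes, without sign, was 1.79 in SHR and 1.65 in SHRSP at 3 weeks, and 1.91 and 1.75 at 6 weeks, beside 0.13, 0.16, 0.16 and 0.14 over all genes. With values that are only bounds set to the bound, and Ms4a4a at 6 weeks to 0, the medians of the 10 were 1.71 in SHR and 1.53 in SHRSP at 3 weeks, and 1.80 and 1.71 at 6 weeks. Among the 10 genes, Ms4a4a lay nearest the edge of the rule. It had differences of 1.18 and 1.37 at 3 weeks against WKY arrays not above background and none measured at 6 weeks. Gramd2b, just outside the rule, had 0.39 and 0.48 at 3 weeks and 0.16 and 0.22 at 6 weeks. Since 960 genes met the rule, this edge does not part the 10 from all other genes.

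**Figure D2:**
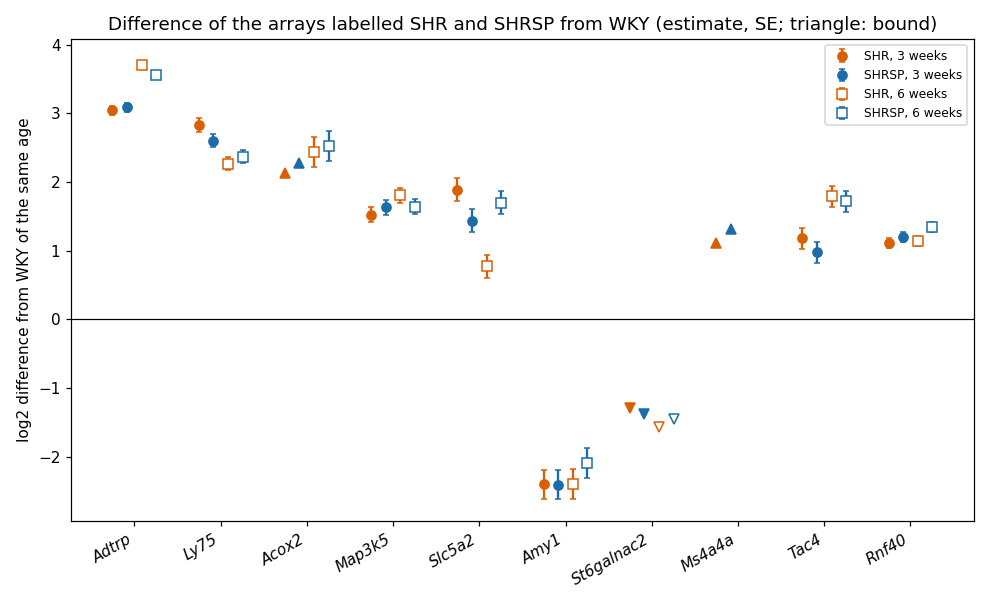
Difference of each gene from WKY of the same age (y axis, log2) by label and age, with bars for the SE of the fit (n = 3 arrays per group). Where no array of 1 group was well above background, a triangle marks a bound. The bound holds for the software's background subtraction, with dim arrays set to the lowest signal marked well above background or their own if higher. Ms4a4a at 6 weeks is not drawn, since neither side was measured. All other points of the 8 higher genes lie above 0 and those of Amy1 and St6galnac2 below it, and Slc5a2 has the widest spread, from 0.77 to 1.89.

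Adtrp had the largest difference and the least scatter. Its level was -5.92, -6.02 and -5.82 in WKY at 3 weeks, -2.89, -2.85 and -2.90 in the arrays labelled SHR, and -2.84, -2.87 and -2.79 in those labelled SHRSP. At 6 weeks the levels were -6.46, -6.28 and -6.41 in WKY, -2.59, -2.73 and -2.71 for SHR, and -2.86, -2.74 and -2.88 for SHRSP. The hypertensive strains were higher on every array and never came within 2.92 of WKY. The differences were 3.04 and 3.09 at 3 weeks and 3.70 and 3.55 at 6 weeks (SE 0.06), in intensity a mean of 40.5 in WKY against 313 and 318 in the others at 3 weeks.

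Ly75, an endocytic receptor, had the next largest mean difference among the higher genes. WKY read -7.37, -7.08 and -7.33 at 3 weeks, where the arrays labelled SHR read -4.50, -4.37 and -4.43 and those labelled SHRSP -4.64, -4.57 and -4.76. WKY read -6.73, -6.88 and -7.12 at 6 weeks, where SHR read -4.63, -4.58 and -4.72 and SHRSP -4.43, -4.60 and -4.60. Ly75 was well above background on all 12 hypertensive arrays and on 4 of 6 WKY arrays. The differences from WKY were 2.83 and 2.60 at 3 weeks and 2.27 and 2.37 at 6 weeks (SE 0.10).

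Ms4a4a, the other leukocyte surface gene, was near the detection limit. In WKY it stood at -7.64, -7.56 and -7.51 at 3 weeks and at -9.94, -9.12 and -8.57 at 6 weeks, and no WKY array was well above background. The arrays labelled SHR had -6.90, -6.15 and -6.12 at 3 weeks and those labelled SHRSP -6.17, -6.06 and -6.35, all well above background. At 6 weeks they had -6.91, -7.66 and -7.43, and -7.01, -7.66 and -8.47, none well above background. Without slide in the fit and with the software's background subtraction, Ms4a4a was at least 2.17-fold higher in SHR and at least 2.48-fold higher in SHRSP than in WKY at 3 weeks. For these bounds the dim arrays were set to the lowest signal marked well above background or their own if higher. No fold is given at 6 weeks, since neither side was measured above background. With slide as a fixed block the differences at 3 weeks were 0.67 and 0.69 in place of 1.18 and 1.37, and neither passed the adjusted p of 0.05. With slide as a random block they were 1.0003 and 1.16, and neither passed it either.

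Acox2, the peroxisomal oxidase, was higher in the hypertensive strains. WKY had -8.39, -7.29 and -7.66 at 3 weeks, none of them well above background, while SHR had -5.25, -5.54 and -5.23 and SHRSP -5.13, -5.17 and -5.29. At 6 weeks WKY had -7.34, -6.95 and -7.67, SHR -4.97, -4.89 and -4.80, and SHRSP -4.95, -4.69 and -4.77. The lowest hypertensive array was 1.41 above the highest WKY array. With the software's background subtraction Acox2 was at least 4.38-fold higher in SHR and at least 4.84-fold higher in SHRSP than in WKY at 3 weeks. At 6 weeks, where 2 of 3 WKY arrays were well above background, the differences were 2.44 and 2.52 (SE 0.22).

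Amy1, the salivary alpha-amylase, was lower. WKY had -4.96, -5.14 and -5.26 at 3 weeks and -5.01, -5.30 and -4.60 at 6 weeks. The arrays labelled SHR had -7.95, -7.33 and -7.27, then -7.44, -6.93 and -7.72, and those labelled SHRSP had -7.62, -7.39 and -7.57, then -7.11, -6.94 and -7.12. Amy1 was well above background on all 6 WKY arrays and on 6 of the 12 others, and the groups were 1.63 apart. The differences were -2.40 and -2.41 at 3 weeks and -2.39 and -2.09 at 6 weeks (SE 0.21).

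Neither probe of Amy2, the pancreatic form, passed the detection filter, and they share no run longer than 6 and 5 bases with the Amy1 probe. The Amy2 probes were well above background on 0 and 8 of the 18 arrays.

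St6galnac2, the sialyltransferase, was the other lower gene. WKY had -6.24, -6.55 and -6.19 at 3 weeks and -5.72, -5.99 and -6.16 at 6 weeks. The 12 hypertensive arrays ranged from -8.78 to -7.38, none well above background. With the software's background subtraction St6galnac2 was at least 2.45-fold lower in SHR and at least 2.60-fold lower in SHRSP at 3 weeks. At 6 weeks it was at least 2.96-fold and 2.72-fold lower. No exact difference is given, since the hypertensive side was not measured.

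Slc5a2, the glucose carrier, was higher in the hypertensive strains, with the least even differences. WKY read -7.31, -6.94 and -7.37 at 3 weeks and -6.85, -7.49 and -7.70 at 6 weeks, and 2 of these 6 arrays were well above background. The arrays labelled SHR read -5.44, -5.15 and -5.36 at 3 weeks but -6.65, -6.54 and -6.54 at 6 weeks, while those labelled SHRSP read -5.67, -5.85 and -5.79, then -5.63, -5.60 and -5.73. The differences from WKY were 1.89 and 1.44 at 3 weeks and 0.77 and 1.70 at 6 weeks (SE 0.17), so the smallest was that of the 6-week arrays labelled SHR.

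Map3k5, the stress kinase, was read by a pair of probes that disagreed. The 5′ probe gave -5.02, -5.13 and -5.38 in WKY at 3 weeks and -5.04, -5.06 and -4.87 at 6 weeks. It gave -3.87, -3.50 and -3.59, then -3.05, -3.20 and -3.30 for the arrays labelled SHR, and -3.62, -3.46 and -3.57, then -3.34, -3.21 and -3.49 for those labelled SHRSP. The hypertensive arrays were all higher, with differences of 1.52 and 1.63 at 3 weeks and 1.81 and 1.64 at 6 weeks (SE 0.11).

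The 3′ probe of Map3k5 lies 74.4 kb away. It ranged from -4.25 to -3.93 in WKY and from -4.24 to -3.75 in the hypertensive strains, so the groups overlapped. Its differences were -0.062 and 0.030 at 3 weeks and 0.19 and -0.021 at 6 weeks (SE 0.08). The choice of probe thus decided whether Map3k5 counted as different from WKY, and which transcripts each probe detects was not tested. The 5′ probe represented the gene, also in the rank above, as the brighter of the pair. Its mean over the 18 arrays was -3.985, beside -3.992 for the 3′ probe. In WKY it was the dimmer of the pair, so that choice rested on the hypertensive arrays that also set the difference.

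**Figure D3:**
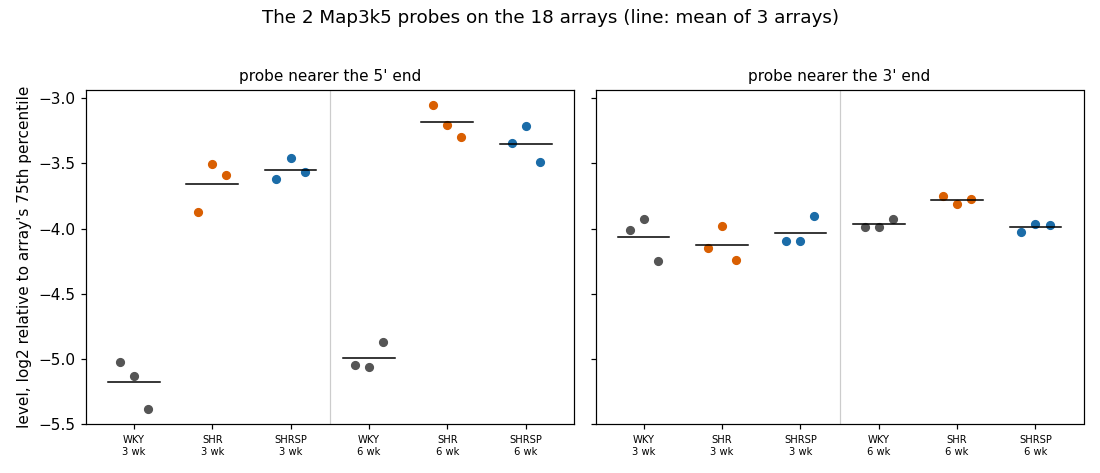
Level of Map3k5 by its 5′ probe (left) and its 3′ probe (right) on each of 18 arrays (y axis, log2 relative to the array's 75th percentile), with a line at the mean of 3 arrays. The 6 WKY arrays lie between -5.38 and -4.87 on the left, below all others, and between -4.25 and -3.93 on the right, where they overlap the others.

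Tac4, which encodes hemokinin-1, was higher in the hypertensive strains. WKY read -6.85, -6.62 and -6.75 at 3 weeks and -7.18, -7.52 and -6.96 at 6 weeks. The arrays labelled SHR read -5.63, -5.58 and -5.48, then -5.15, -5.44 and -5.70, and those labelled SHRSP -5.73, -5.91 and -5.66, then -5.53, -5.69 and -5.28. All 12 were well above background, as were 4 of the 6 WKY arrays, and the gap was 0.72. The differences were 1.18 and 0.97 at 3 weeks and 1.79 and 1.72 at 6 weeks (SE 0.15). With slide as a fixed block those of 3 weeks were 1.11 and 0.81, and that of SHRSP no longer passed the adjusted p of 0.05.

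Rnf40, the histone H2B ligase subunit, had the smallest mean difference but little scatter. WKY read -4.60, -4.77 and -4.86 at 3 weeks and -4.60, -4.57 and -4.79 at 6 weeks. The arrays labelled SHR read -3.68, -3.58 and -3.64, then -3.45, -3.55 and -3.53, and those labelled SHRSP -3.56, -3.57 and -3.50, then -3.38, -3.19 and -3.35. Every array was well above background, and the groups were 0.88 apart. The differences were 1.11 and 1.20 at 3 weeks and 1.14 and 1.35 at 6 weeks (SE 0.07).

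The sizes depended on the background correction and its settings. In the normexp correction of the mean signals, here and below, an offset of 50 was added. An added constant makes log differences smaller, most of all for dim spots, and its part in the normexp values was not tested. With normexp the mean difference from WKY fell from 3.35 to 1.94 for Adtrp and from 2.51 to 0.97 for Ly75. For Map3k5 it fell from 1.65 to 1.05. It fell from 1.45 to 0.42 for Slc5a2, from 1.42 to 0.47 for Tac4 and from 1.20 to 0.85 for Rnf40, and went from -2.32 to -0.77 for Amy1. Where bounds were given, the normexp differences in SHR and SHRSP were smaller than those bounds. They were 0.67 and 0.80 at 3 weeks for Acox2 and 0.29 and 0.35 for Ms4a4a. For St6galnac2 they were -0.25 and -0.28 at 3 weeks and -0.23 and -0.33 at 6 weeks. The bounds thus hold only for the software's background subtraction. Every direction was kept. Of the 40 differences from WKY, 37 still passed the adjusted p of 0.05. Those lost were Slc5a2 in SHR at 6 weeks (0.14) and Ms4a4a in both labels at 6 weeks, so that 8 of the 10 genes then passed in all 4 comparisons.

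Comparisons other than the differences from WKY were tested, beginning with the arrays labelled SHRSP against those labelled SHR. That difference equals the selecting difference of SHRSP from WKY minus that of SHR. The selection could thus favour similar values under both labels, so counts of genes called between the labels are not independent of it. At 3 weeks 0 of the 10 genes differed, beside 4.31% of all genes (limma), and 2 of them, Ly75 and Slc5a2, had an unadjusted p under 0.05. The lowest adjusted p was that of Slc5a2, 0.187, for a difference of -0.45 ± 0.17 (SE), although its 3 arrays labelled SHR all lay above the 3 labelled SHRSP, and Slc5a2 was called without WKY replicate 1 of 6 weeks (-0.45, adjusted p = 0.0306). For Adtrp the 95% interval of the difference was -0.09 to 0.18 and for Rnf40 -0.06 to 0.25, while for Ms4a4a it was -0.59 to 0.97.

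At 6 weeks 2 of 10 genes differed between these arrays, beside 42.8% of all genes. Slc5a2 was higher in the arrays labelled SHRSP by 0.93 ± 0.17 (adjusted p = 0.00086, limma), a fold of 1.90, with all 3 arrays above those labelled SHR. Rnf40 was higher by 0.20 ± 0.07 (adjusted p = 0.0364), again with no overlap. The count depended on the probe of Map3k5. Its 5′ probe was not called (-0.16, adjusted p = 0.252, limma), while its 3′ probe was (-0.21, adjusted p = 0.0461). With normexp Rnf40 was not called (0.12, adjusted p = 0.13), while Adtrp (-0.20, adjusted p = 0.0184) and Map3k5 (-0.18, adjusted p = 0.0432) were, and with quantile normalization Amy1 was (0.54, adjusted p = 0.0409). The Rnf40 call was also lost without SHR replicate 2 (0.18, adjusted p = 0.104), SHR replicate 3 (0.19, adjusted p = 0.0893) or SHRSP replicate 2 of 6 weeks (0.14, adjusted p = 0.157), and with slide as a random block (adjusted p = 0.18). The Slc5a2 call held in all 18 fits that left out 1 array. Adtrp was called, lower in the arrays labelled SHRSP by -0.19, without SHRSP replicate 2 of 6 weeks (adjusted p = 0.0358).

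The difference between SHRSP and SHR changed with age for 1 of 10 genes, beside 18.1% of all genes, in a test added after the values were seen. This change is also made of the differences that chose the genes, so the count is not independent of the selection. For Slc5a2 it went from -0.45 to 0.93, a change of 1.38 ± 0.24 (adjusted p = 0.0013, limma). Within the labels Slc5a2 changed from 3 to 6 weeks by -1.26 in SHR and 0.12 in SHRSP. If the labels of one age were exchanged, the changes would be -0.33 and -0.81.

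In WKY 4 of 10 genes passed the test from 3 to 6 weeks, beside 44.4% of all genes. One of the 4 was Ms4a4a, which no WKY array measured above background at either age, so no change is read from it. Adtrp fell by 0.46 on the log2 scale (SE 0.06, adjusted p = 0.000106), with all 3 older arrays below the younger. Tac4 fell by 0.48 (SE 0.15, adjusted p = 0.0194) and Ly75 rose by 0.35 ± 0.10 (adjusted p = 0.00996). With normexp the Ly75 call was the only one left (0.17, adjusted p = 0.0102), and Adtrp (-0.07, adjusted p = 0.386) and Tac4 (-0.0059, adjusted p = 0.96) showed no called change. WKY arrays of the ages were on different slides, and with slide as a fixed block 0 of 10 were called. The differences then were -0.54 for Adtrp (adjusted p = 0.0718), -0.75 for Tac4 (adjusted p = 0.266) and 0.40 for Ly75 (adjusted p = 0.341). None of these was smaller in size than without the block. In that fit the ages were linked only by the single array of another strain on slide 1 and on slide 3. The lost calls thus do not show smaller changes. With slide as a random block the Ly75 (0.36, adjusted p = 0.058) and Tac4 (-0.54, adjusted p = 0.0736) calls were lost. The Tac4 call was lost without WKY replicate 2 of 3 weeks (-0.42, adjusted p = 0.0696) or of 6 weeks (-0.33, adjusted p = 0.0997), and the Ly75 call without WKY replicate 1 of 6 weeks (0.26, adjusted p = 0.0525). Acox2, not above background in WKY at 3 weeks and not called (adjusted p = 0.105), was called without WKY replicate 2 of 3 weeks or replicate 3 of 6 weeks, and Slc5a2, at -0.14 ± 0.17, without replicate 1 of 6 weeks (-0.39).

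In SHR and SHRSP averaged, a value that does not depend on which of these labels an array carries, 5 of 10 genes passed the test from 3 to 6 weeks, beside 49.8% of all genes. Map3k5 rose by 0.33 ± 0.08 (adjusted p = 0.00356), Rnf40 by 0.18 ± 0.05 (adjusted p = 0.0109) and Acox2 by 0.43 ± 0.16 (adjusted p = 0.0354). The 3′ probe of Map3k5 rose as well, by 0.19 ± 0.06 (adjusted p = 0.0114). Slc5a2 fell by 0.57 (SE 0.12, adjusted p = 0.0016). Ms4a4a, the last of the 5, passed the detection filter only through its 3-week arrays labelled SHR and SHRSP, so no fall is read from it. It was not above background at 6 weeks. With the software's background subtraction the bounds there were 1.92-fold lower under the SHR label and 2.19-fold lower under the SHRSP label. With normexp the average of Ms4a4a changed by -0.26. The Acox2 call was lost in 8 of 18 fits that left out 1 array, namely SHR replicate 2 or SHRSP replicate 1, 2 or 3 of 3 weeks, or replicate 2 or 3 of either label of 6 weeks, with values of 0.38 to 0.44 (adjusted p up to 0.0802). Calls were gained for Adtrp without WKY replicate 2 or 3 of 3 weeks (0.10 each), and for Amy1 (0.40) and Tac4 (0.27) without SHR replicate 3 of 6 weeks. With quantile normalization Acox2 (0.25, adjusted p = 0.219) and Rnf40 (0.09, adjusted p = 0.179) were not called. With slide as a random block Acox2 (adjusted p = 0.164) and Rnf40 (adjusted p = 0.0801) were not called, and with normexp Adtrp (0.15, adjusted p = 0.0122) and Tac4 (0.17, adjusted p = 0.0195) were. A fixed slide block could not be fitted to this comparison.

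How far the hypertensive strains lay from WKY at 6 weeks against 3 weeks was computed from the 4 differences that chose the genes, so it is described without a test. By the fit 3 of 10 genes were called, beside 36.5% of all genes, and nothing is read from that count. Adtrp lay further from WKY at 6 weeks by 0.56 ± 0.08 (SE) and Tac4 by 0.68 ± 0.19, while Ly75 lay closer, by -0.40 ± 0.12. In SHR and SHRSP averaged the age changes of these genes were 0.10 ± 0.04, 0.20 ± 0.11 and -0.05 ± 0.07. With normexp the values were 0.22 for Adtrp, 0.18 for Tac4 and -0.22 for Ly75, and with slide as a random block they were 0.58, 0.73 and -0.39. For Slc5a2 the value was -0.43 ± 0.21, and -0.27 with normexp.

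**Figure D4:**
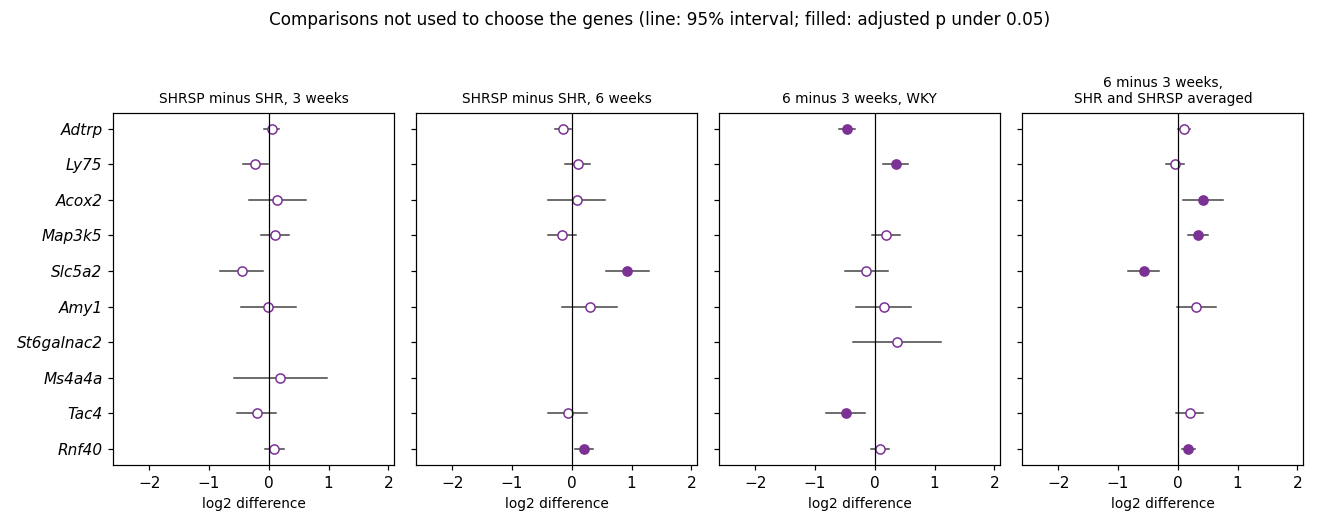
Log2 difference (x axis) of each gene (y axis) in 4 comparisons other than the differences from WKY. Bars are 95% intervals, and points are filled where the adjusted p was under 0.05. Those of SHRSP against SHR are not independent of the selection. Genes not above background on any array of a group compared are not drawn there. No point is filled for SHRSP against SHR at 3 weeks, and Slc5a2 at 0.93 stands out at 6 weeks.

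Relatives of each gene, listed by family and pathway, were counted in the same fit. Of 163 measured relatives (212 listed), 9 were higher and 7 lower than WKY in all 4 comparisons, that is 9.82%, where 4.53% of all genes were. The median of their mean differences was 0.02, beside 0.00 over all genes. None of the 16 measured amylase and glycogen genes, 27 sialyltransferase and sialic acid genes or 18 histone H2B ubiquitylation genes did so.

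The coagulation genes beside Adtrp counted 2 higher and 2 lower of 11. F3, which encodes tissue factor, was lower by a mean of log2 -0.50 ± 0.03 (SE), and Cav1, which encodes caveolin-1, higher by 0.38 ± 0.03. Tfpi, the inhibitor that Adtrp regulates, was higher by 0.44 ± 0.04 at its brighter probe but lower by -0.53 at its other kept probe, so its direction is not settled. Thbd, thrombomodulin, named after its values were seen, was lower by -0.32 ± 0.04 at the probe used, while another probe gave 0.00.

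Among the 22 peroxisomal and bile acid genes beside Acox2, 2 were higher and 3 lower. Baat, which conjugates bile acids, was lower by -1.41 ± 0.17, and the thiolases Acaa1b and Acaa1a were lower by -0.56 ± 0.03 and -0.54 ± 0.03, with the same sign at a further probe of each (-0.54 and -0.32). Slc27a2, a very long chain acyl-CoA synthetase, and Pex7, the receptor that imports thiolase, were higher by 0.49 ± 0.03 and 0.33 ± 0.04, and were named after their values were seen.

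In the other lists few relatives moved one way. Of 21 genes of the Map3k5 cascade, Traf6, an adaptor upstream, and Mapk12, a p38 kinase downstream, were lower by -0.47 ± 0.04 and -0.39 ± 0.04. Of 16 sugar and other solute carriers beside Slc5a2, the vitamin transporter Slc5a6 was higher by 0.30 ± 0.02. Of 13 tachykinin genes, Dpp4, a peptidase that trims many peptides, was higher by 0.43 ± 0.05 (0.65 at its other probe). Of 9 mannose receptor and dendritic cell genes beside Ly75, Mrc1 was higher by 0.78 ± 0.14. It was well above background on only 9 of 18 arrays.

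Some macrophage markers were higher where Ms4a4a was. Of 11 measured MS4A and border macrophage genes, 3 were higher in all 4 comparisons, where 4.53% of all genes were called one way. They were Cd163 (1.03 ± 0.12), Mrc1 (0.78 ± 0.14) and Lyve1 (0.73 ± 0.09), all markers of macrophages at the brain's borders. Cd163 and Lyve1 were well above background on all 18 arrays, but Mrc1 on only 9 of them. Ms4a6a differed by 0.13 in SHR and 0.87 in SHRSP at 3 weeks and passed only in SHRSP. The remaining genes of the list did not pass at 3 weeks. The differences in SHR and SHRSP there were 0.03 and -0.02 for F13a1, 0.05 and -0.02 for Folr2, -0.10 and 0.03 for Pf4, and -0.05 and -0.33 for Ms4a7. At 6 weeks 9 of the 11 genes were called higher in SHR and 7 in SHRSP, and 0 lower. Among them were Ms4a6a (1.24 and 0.87), F13a1 (0.42 and 0.45) and Folr2 (0.69 and 0.59). The summed linear level of the 5 border macrophage markers measured ranged from 0.265 to 0.314 in WKY, 0.280 to 0.369 in SHR and 0.360 to 0.370 in SHRSP at 3 weeks, and from 0.173 to 0.241, 0.313 to 0.366 and 0.238 to 0.309 at 6 weeks. Of 6 microglial markers, Tmem119, C1qa and Trem2 were higher in all 4, and the others were not. In SHR and SHRSP at 3 weeks, then at 6 weeks, Cx3cr1 differed by -0.44, -0.43, 0.23 and -0.31. P2ry12 differed by -0.40, 0.05, 0.24 and -0.01, and Csf1r by 0.14, 0.15, 0.48 and 0.64. The sum over the 6 markers was 7.87 to 8.10 in WKY, 8.01 to 8.51 in SHR and 8.79 to 9.90 in SHRSP at 3 weeks. At 6 weeks it was 6.32 to 7.12, 8.90 to 9.58 and 8.24 to 8.43. The part of these markers in the Ms4a4a result was not tested, and in whole brain fewer cells of a type and less RNA per cell cannot be told apart.

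Markers of tissues rich in the other genes were counted too. Of the dendritic cell markers beside Ly75, 3 of 6 were measured (Flt3, Zbtb46 and Ccr7) and 0 were called one way in all 4 comparisons. Of 5 measured kidney tubule markers beside Slc5a2, 0 were, and of 4 measured salivary gland and pancreas markers beside Amy1, 0 were. The summed level of the last list ranged from 1.99 to 2.25 in WKY and from 1.01 to 1.996 in the hypertensive strains at 3 weeks, but from 0.888 to 0.919 and from 1.26 to 2.07 at 6 weeks, so it was lower in WKY at the later age.

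Genes near the 10 on the chromosome were then counted. Within 500 kb of their probes lay 151 measured genes, of which 10 were higher and 4 lower than WKY in all 4 comparisons, that is 9.27%, where 4.53% of all genes were. Within 250 kb it was 10 of 89 (11.2%) and within 1000 kb 26 of 271 (9.59%). Rnf40 and Slc5a2 lie 639 kb apart on chromosome 1, so that their windows share genes, and the next nearest pair, St6galnac2 and Tac4 on chromosome 10, is 22839 kb apart.

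Among the neighbours, the one nearest in size to its member was an Ensembl transcript without a gene symbol, 228 kb from Amy1, with a mean difference of -2.63 ± 0.16 beside -2.32 for Amy1. Qrich2 (-0.90 ± 0.10, 244 kb) and Mgat5b (-0.54 ± 0.04, 296 kb) near St6galnac2 were lower, although a further Mgat5b probe gave 0.01. Near Acox2, Kctd6 (0.40 ± 0.04, 8.48 kb) and Rpp14 (0.44 ± 0.02, 152 kb) were higher and Pxk lower (-0.25 ± 0.02), where a further Pxk probe gave 0.06. Rusf1 (0.55 ± 0.03) lay 0.974 kb from the probe of Slc5a2 and Cd302, another lectin receptor, 46.2 kb from that of Ly75 (0.24 ± 0.03). Near Rnf40, Zfp688, Sephs2, Dctpp1 and, named after its values were seen, Cfap119 were higher by 0.33 to 0.39. Near Map3k5, Ifngr1, a subunit of the interferon gamma receptor, and Pex7 were higher by 0.37 and 0.33. No neighbour of Adtrp, Ms4a4a or Tac4 was called one way in all 4, out of 6, 15 and 17 measured.

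**Figure D5:**
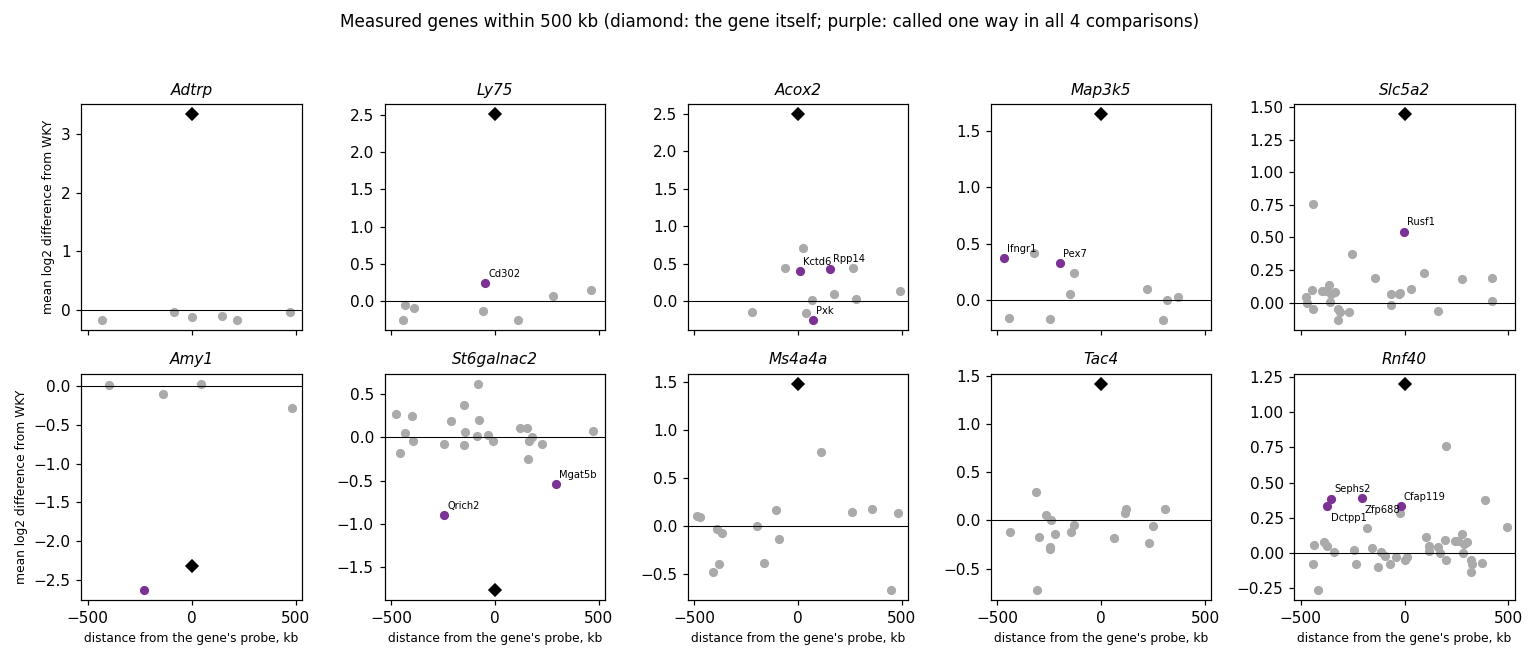
Mean log2 difference from WKY over the 4 comparisons (y axis) of each measured gene within 500 kb of a member's probe (x axis, distance in kb), with a black diamond for the member (for Acox2, Ms4a4a and St6galnac2 partly from spots not above background) and purple points for the 14 neighbours called one way in all 4. Only the purple point near Amy1, at -2.63, is as far from 0 as its member.

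The genes most like each member over the 18 arrays were sought by Pearson's r, as a description, since arrays of one strain share their strain. They were Tlr3 and Mcm7 for Adtrp (r = 0.99 each), Tor1b and Mcm7 for Ly75 (0.99 each), Fam32a and Timm29 for Acox2 (0.98 each), and Bcl2l15 and C16h10orf53 for Map3k5 (0.99 each). Amy1 was nearest to Tatdn3 (0.99) and Ptgr1 (0.97), St6galnac2 to its neighbour Qrich2 and to Ntaq1 (0.94 each), and Slc5a2 to Slc39a1 (0.95) and Zfp688 (0.94). Tac4 was nearest to Rtel1 and Pigk (0.97 each), Rnf40 to Mcm7 and 2810025M15Rikl (0.99 each), and Ms4a4a to the microglial gene Tmem119 (0.95) and to Pld4 (0.94). Among the members themselves r over 18 arrays reached 0.98 for Adtrp with Ly75, and once group means were removed that pair gave -0.39. The pair with the highest r within groups was Ly75 with Slc5a2, at 0.76.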

How the data were processed

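The deposited files hold the spot intensity that the authors' Agilent Feature Extraction 10.5.1.1 produced, per the submitters' processing notes, with background subtracted by the software. The authors' series table holds the same values (largest difference 0). Genes were named through a RefSeq table by accession (17328 probes), name (2632) or synonym (693). Control spots and spots marked as outliers were left out (at most 1.49% of an array's spots), log2 was taken and the array's 75th percentile subtracted. Probes well above background on all 3 arrays of at least 1 group were kept (24287 of 30367), and the brightest kept probe represented a gene (21199 genes). One fit (limma 3.58.1, R 4.3.3) gave a mean per group, with 12 residual and 1.95 prior degrees of freedom, and two-sided p adjusted by Benjamini-Hochberg over all genes of a comparison. The p-values rest on the spread between arrays of a group, pooled over the 6 groups of 3 arrays. Between 81.8% and 87.5% of the spots of an array were well above background and 0 were saturated, and the number of arrays limits the precision. In simulated data for the age comparison in WKY (21199 genes), 81.8%, 91.0% and 100% of changes of 0.5, 1 and 2 were called. The simulation changed few genes and held no slide effect, whereas 44.4% of genes were called in the data, so these shares need not hold there.

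The members, lists and alternatives were chosen with earlier results of these data known. Named were all members, up to 3 relatives and 3 neighbours each with the largest change called one way in all 4 comparisons, and the 2 most alike genes. Replicate numbers did not pair the samples: of 45 same-numbered pairs 3 had r over 0.1 (-0.14 to 0.17).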

Additional observations from a re-analysis of the deposited data

Results flagged for a closer look

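Adtrp, Tac4 and Ly75 were flagged for a difference in age change between WKY and the hypertensive strains, by the interaction of strain and age. That interaction is made of the differences that chose the genes, so its values are a description. Strain and slide cannot be told apart at 6 weeks, so the values are not assigned to strain. Tac4 was not called with normexp, quantile normalization or slide as a random block, nor Ly75 with the last of these. The value was 0.56 for Adtrp, 0.68 for Tac4 and -0.40 for Ly75 (log2). For Slc5a2 the difference between arrays labelled SHRSP and SHR changed with age by 1.38, by a test added after the values were seen. This change is made of the same selecting differences. On 6 of 6 arrays of each age Adtrp was higher in the hypertensive strains than on any WKY array. Groups of 3 arrays are too small for the search for single outlying arrays.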

How the results depend on the processing

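Leaving out 1 array gave 0 to 1 members called between SHRSP and SHR at 3 weeks, 1 to 2 at 6 weeks, 3 to 5 by age in WKY, 4 to 6 by age in SHR and SHRSP averaged, 2 to 4 by strain and age, 1 to 1 for the change of SHRSP minus SHR with age, 9 to 10 members, 11 to 16 relatives and 11 to 15 neighbours called one way against WKY. Between SHRSP and SHR at 6 weeks 1 was called with slide as a random block and 1 with only those groups in the fit, in place of 2. By age in WKY 1 was called with normexp, 0 with slide as a fixed block, 2 with slide as a random block and 1 with scan day as a block, in place of 4. With slide as a random block 3 were called by age in SHR and SHRSP averaged, 1 by strain and age, and 10 relatives in place of 16. Quantile normalization gave 2 for the change of SHRSP minus SHR with age, and a window of 1000 kb gave 26 neighbours. Against WKY 8 members were called one way with normexp and 9 with slide as a random block, with 37 and 37 of 40 single calls kept, and 17 of 20 were kept with slide as a fixed block. The cause of these changes was not tested. With the 3′ probe of Map3k5, tried after its values were seen, the difference from WKY was -0.062 for SHR at 3 weeks and -0.021 for SHRSP at 6 weeks.

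With the replicate number as a block the counts were 0, 2, 4, 5, 3 and 1 in the 6 tests in the order above, 10 members, 15 relatives and 14 neighbours, and 60 of 60 single calls were kept. No filter on dim probes, the mean of all kept probes and outlier spots kept also left 60 of 60 calls in place. Of the 40 differences from WKY, normexp moved 40, quantile normalization 12, the mean of all kept probes 4 (those of Map3k5) and slide as a fixed block 10 of 20 by more than 1 SD, and none of these reversed. A fixed slide block could not be fitted at 6 weeks, for the age change of SHR and SHRSP or for strain by age, nor scan day where 6-week SHRSP arrays enter. Signal near background limits Ms4a4a and St6galnac2 most.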
